A study of Yarrowia lipolytica with 4 samples.

Results

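Expression of 4 genes of membrane transport in the yeast Yarrowia lipolytica is described here, out of 8381 features that both deposited tables hold. They are a predicted potassium transporter (YALI0_C10311g), a predicted calcium exchanger resembling VCX1 (YALI0_B09273g), a predicted water channel (YALI0_F01210g) and a predicted polyamine transporter resembling TPO1 (YALI0_F07062g). They were picked by identifier, with the difference between the strains already known, so that difference is given for them as a description without a test. Polyadenylated RNA came from a sur2 deletion strain (ku70Δ::tc sur2Δ::LEU2) and from its parent (ku70Δ::tc, labelled WT). Both were derived from PO1f, which needs leucine and uracil in the medium, and both lack KU70, which helps to join broken DNA ends. In the deletion strain LEU2 stands in the place of SUR2, the gene of the sphingoid base C4-hydroxylase, so loss of SUR2 and gain of the marker cannot be told apart. Each strain gave 2 libraries, from cells grown in YPD, a rich medium, at 28 °C until the OD600 reached 0.8. Since no label names them as separate cultures, the p-values below cover the spread between libraries only, which may be technical.

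Cells keep steep ion gradients across their membranes. In fungi a proton pump of the plasma membrane energises uptake of potassium through transporters of the TRK and HAK families. Calcium is held low in the cytosol by pumps and by an exchanger that trades calcium for protons at the vacuole, the role of VCX1 in Saccharomyces cerevisiae. Aquaporins let water, and some of them glycerol, pass through the membrane. TPO1 of S. cerevisiae is a proton-driven exporter of spermidine and other polyamines in the major facilitator superfamily, which also holds many drug exporters. The roles given to the 4 Y. lipolytica genes rest on such likenesses in the deposited annotation.

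The deposited data were split over a transcript table and a gene table, each with 1 library of either strain. The library of a strain in the transcript table is called T here and that in the gene table G. Total counts were 16698719 and 8765729 in the T and G deletion libraries, against 16585818 and 13972149 in the parent libraries. SUR2 (YALI0_E17347g) had 0 and 0 reads in the deletion libraries and 1402 and 1319 in the parent libraries. CPM below are counts scaled to library size and adjusted by edgeR's TMM factors, and TPM are the deposited values, which are also scaled by gene length. The 2 scales are not centred alike. Over the 5551 genes with at least 1 TPM in every library, the median ratio of TPM, deletion over parent, was 1.03 between the T libraries and 1.7 between the G libraries, while on the CPM scale the median log2 ratio over the 6051 tested genes was -0.01 and 0.04. Fold changes below therefore come from counts, and TPM are used to set genes side by side within a library. RNA came from whole cultures, in which more RNA per cell and more cells with the RNA cannot be told apart.

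The potassium transporter gene YALI0_C10311g had at least 277 reads in each deletion library and was nearly silent in the parent. It lies on the reverse strand of chromosome C, 1436274 to 1439366 in the coordinates of the deposited tables, a span of 3093 bases, and is annotated as similar to the high-affinity potassium transporter of Debaryomyces occidentalis. The T and G deletion libraries held 277 and 451 of its reads, or 16.2 and 46.1 CPM, against 4 and 2 reads, or 0.233 and 0.169 CPM, in the parent libraries. Both deletion libraries stood far above both parent libraries, and the G library of the deletion strain was 2.85 times as high as its T library. Counting error alone (exact Poisson, 95%) leaves the parent levels anywhere from 0.0635 to 0.597 CPM in library T and from 0.0205 to 0.611 CPM in library G. Between the T libraries the deletion strain had 69.4 times the CPM of the parent (26.8 to 256, exact 95% interval for counting error only). Between the G libraries the ratio was 273, with an interval of 75.1 to 2259, since it rests on 2 parent reads. The fitted log2 fold change was 7.18 ± 0.81 (standard error, n = 2 each), rank 6 by size of rise among the 6051 tested genes. It was 6.25 without the G deletion library. On TPM, where the added pseudocount shrinks the change of a gene this low, it was 3.13 with a pseudocount of 1 and 5.81 with one of 0.1. The filter on low counts asked for about 0.654 CPM in 2 libraries, which YALI0_C10311g met through the deletion libraries alone.

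The VCX1-like gene YALI0_B09273g was clearly expressed in both strains and was about 4 times as high in the deletion strain. It lies on the forward strand of chromosome B, 1263561 to 1264763, a span of 1203 bases. It had 4077 and 2234 reads, or 238 and 229 CPM, in the T and G deletion libraries, against 892 and 723 reads, or 52 and 61.1 CPM, in the parent libraries. The libraries of each strain lay close together and the strains were far apart. The means were 233 ± 6.72 CPM in the deletion strain and 56.6 ± 6.45 CPM in the parent (SD, n = 2 each). The log2 fold change was 2.04 ± 0.35, a 4.12-fold higher level in the deletion strain. The ratio of deletion to parent was 4.58 (4.26 to 4.93) between the T libraries and 3.74 (3.44 to 4.07) between the G libraries. Of the 4 genes it had the smallest change and the smallest difference between the tables, with a standard deviation of 0.21 between the log2 ratios of the T and the G pair. It ranked 222 among the 6051 tested genes by size of rise.

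The water channel gene YALI0_F01210g was the only one of the 4 that was lower in the deletion strain. It lies on the forward strand of chromosome F, 198167 to 199021, a span of 855 bases, and is annotated as similar to AQY1 of Candida albicans. It had 278 and 161 reads, or 16.2 and 16.5 CPM, in the T and G deletion libraries, against 1286 and 1549 reads, or 75 and 131 CPM, in the parent libraries. The deletion libraries were nearly equal and both lay below the parent libraries, of which G was 1.75 times as high as T. The means were 16.4 ± 0.169 CPM in the deletion strain and 103 ± 39.6 CPM in the parent (SD, n = 2 each), and the log2 fold change was -2.65 ± 0.42. Between the T libraries the CPM was 4.62 times (4.05 to 5.27) lower in the deletion strain than in the parent, and between the G libraries 7.95 times (6.76 to 9.41) lower. YALI0_F01210g ranked 30 among the tested genes by size of fall.

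The TPO1-like gene YALI0_F07062g had at least 1213 reads in each deletion library and 68 in each parent library. It lies on the reverse strand of chromosome F, 1032419 to 1034119, a span of 1701 bases. The T and G deletion libraries held 1213 and 2233 reads, or 70.8 and 228 CPM, against 68 and 68 reads, or 3.97 and 5.75 CPM, in the parent libraries. Both deletion libraries lay above both parent libraries, and they differed from each other by a factor of 3.23, more than for any other of the 4 genes in either strain. The means were 150 ± 111 CPM in the deletion strain and 4.86 ± 1.26 CPM in the parent (SD, n = 2 each). The log2 fold change was 4.95 ± 0.65, rank 34 among the rises, and it was 3.87 without the G deletion library and 5.56 without the T deletion library. Between the T libraries the deletion strain had 17.9 times (14 to 23.2) the CPM of the parent, and between the G libraries 39.7 times (31.2 to 51.3).

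**Figure D1:**
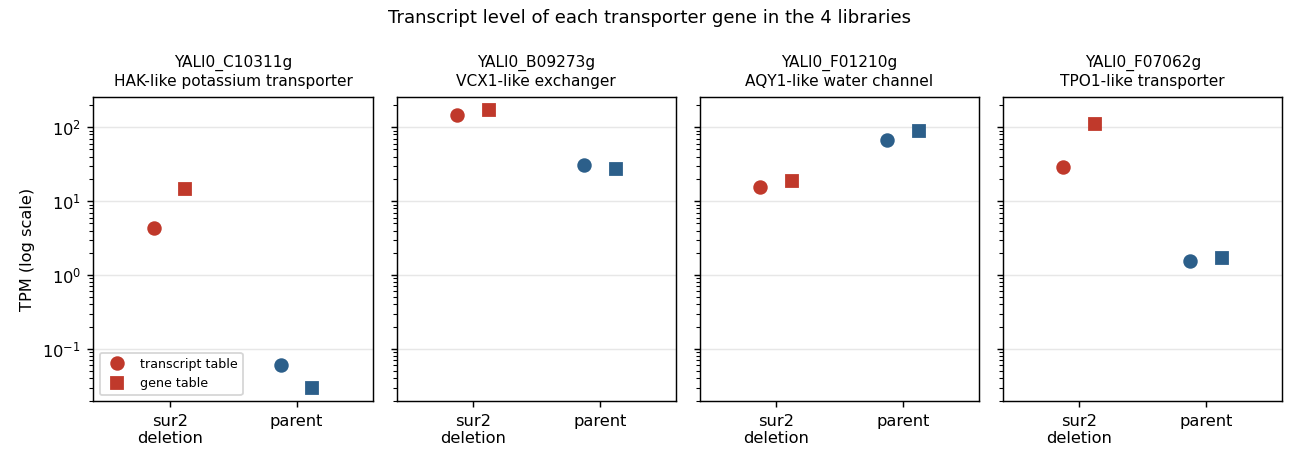
Deposited TPM on a log axis for each of the 4 genes, with the sur2 deletion libraries in red and the parent libraries in blue; circles are T libraries, from the transcript table, and squares G libraries, from the gene table. The strains do not overlap for any of the 4 genes, and YALI0_C10311g spans the widest range, from 0.03 to 14.65 TPM.

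All 4 genes were among the 75 genes, 1.24% of the 6051 tested, that differed between the strains at an adjusted p under 0.05 in edgeR's quasi-likelihood test. Of the tested genes 0.992% were called higher, as were 3 of the 4, and 0.248% lower, as was the water channel. For all 4 the strains did not overlap in CPM, as was so for 42.3% of the tested genes. Since the genes were picked from this contrast, neither count bears on them. Without the T or the G parent library edgeR called 0 of the tested genes, the 4 transporter genes included, with 414 and 361 tested genes at an unadjusted p under 0.05.

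Per length, the order of the 4 genes differed between the strains. In both deletion libraries the VCX1-like gene came first, at 147 and 169 TPM in libraries T and G. The TPO1-like gene followed at 29.2 and 112 TPM, the water channel at 15.5 and 18.9 TPM, and the potassium transporter at 4.35 and 14.7 TPM. In both parent libraries the water channel came first, at 67.8 and 89.4 TPM, ahead of the VCX1-like gene at 30.7 and 26.9 TPM. The TPO1-like gene had 1.56 and 1.68 TPM there and the potassium transporter 0.06 and 0.03 TPM. In the deletion strain the means of the TPO1-like gene and the water channel, 70.3 ± 58.2 and 17.2 ± 2.41 TPM (SD, n = 2 each), differed by less than the spread of the first. The potassium transporter averaged 9.5 ± 7.28 TPM, and its G library came close to the T library of the water channel. The VCX1-like gene and the water channel stood apart from the rest and from each other in the parent, at 28.8 ± 2.69 and 78.6 ± 15.3 TPM (SD, n = 2 each).

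Among all 6447 protein-coding genes of a library, the VCX1-like gene was above 83.1% and 82.7% by TPM in the T and G deletion libraries, against 51.8% and 57.2% in the parent libraries. The TPO1-like gene was above 48.7% and 75.3% in the deletion libraries, against 12.4% and 16% in the parent libraries. The potassium transporter was above 16.9% and 28.3% in the deletion libraries, against 3.1% and 3.7% in the parent libraries. Its level in the deletion strain was thus still below that of most genes. The water channel was above 33.7% and 32.9% in the deletion libraries, against 72.2% and 80.3% in the parent libraries.

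Of the other 16 tested genes of potassium and monovalent cation transport, 0 passed edgeR's test over all genes in either direction. Over all tested genes 1.24% passed. In that test 3 of the 16 had an unadjusted p under 0.05, 2 higher and 1 lower in the deletion strain. So had 12.4% of all tested genes (752, with 508 higher and 244 lower). The median log2 fold change of the 16 genes was 0.23, against 0.03 over all tested genes. DESeq2 called 3 of them, 2 higher and 1 lower, where it called 6.18% of all genes, and limma on TPM called 0, where it called 3.33%. The gene nearest in annotation to YALI0_C10311g is YALI0_E11473g, named after the same D. occidentalis protein, HAK1. It had 70 and 314 reads in the T and G deletion libraries, against 37 and 10 in the parent libraries, a log2 fold change of 3.56 ± 1.01 that did not pass (adjusted p = 0.182, edgeR). It passed with DESeq2 (adjusted p = 0.00141, in a range over all alternatives of 5.07e-10 to 0.847). Its log2 fold change was 1.42 without the G deletion library, 4.36 without the T parent library and 4.38 without the T deletion library, where alone of the fits with 1 library left out it passed. Another predicted potassium uptake gene, YALI0_B17864g, singled out after its values were seen, had 1673 and 644 reads in the deletion libraries, against 1337 and 645 in the parent libraries (log2 fold change 0.30 ± 0.38, adjusted p = 0.845, edgeR). Of these 3 predicted uptake genes it had the highest TPM in every library, at 22.2 and 17.6 in the deletion libraries and 17 and 8.74 in the parent libraries.

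The most abundant gene of that list was YALI0_B22066g, the plasma membrane proton pump PMA1, at 1423 and 1763 TPM in the deletion libraries and 942 and 1023 TPM in the parent libraries. On the count scale its log2 fold change was 0.26 ± 0.47 (adjusted p = 0.898, edgeR). Next by TPM averaged over the 4 libraries came YALI0_C06281g (SIS2, also called HAL3, which in S. cerevisiae inhibits the phosphatase PPZ1), YALI0_C00891g (SAT4, a protein kinase) and YALI0_E30899g, a PPZ1-like phosphatase. Their log2 fold changes were 0.44 ± 0.40, 0.49 ± 0.38 and 0.19 ± 0.36, and none passed. The other genes that DESeq2 called, chosen after their values were seen, were YALI0_A00847g, a predicted potassium channel subunit, and YALI0_A01023g, annotated as the sodium efflux pump ENA5. The first had 494 and 1119 reads in the deletion libraries and 288 and 225 in the parent libraries, and its log2 fold change was 2.0 ± 0.61 (adjusted p = 0.22 in edgeR and 0.0216 in DESeq2). The second had 1116 and 554 reads in the deletion libraries and 3368 and 1401 in the parent libraries. Its log2 fold change was -1.37 ± 0.38 (adjusted p = 0.173 in edgeR and 0.0293 in DESeq2). Another gene annotated as ENA5, YALI0_E19338g, was also named after its values were seen. It had 166 and 97 reads in the deletion libraries and 168 and 103 in the parent libraries. Its log2 fold change was 0.08 ± 0.49 (adjusted p = 0.977, edgeR). The alternatives gave an adjusted p between 1.25e-06 and 0.851 for the first and between 0.0293 and 0.731 for the second.

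Of the other 21 tested genes of calcium transport and calcineurin signalling, 0 passed edgeR's test, where 1.24% of all tested genes did. In that test 2 had an unadjusted p under 0.05, both higher in the deletion strain, beside 12.4% of all tested genes. DESeq2 and limma called 0, where they called 6.18% and 3.33% of all genes. The median log2 fold change of the 21 genes was 0.18. By TPM averaged over the 4 libraries the leading genes were YALI0_E34111g (calmodulin, the small calcium sensor), YALI0_A19976g and YALI0_E19008g (the regulatory and a catalytic subunit of calcineurin, the phosphatase that calmodulin activates) and YALI0_E27632g (SSL2, a putative calmodulin-dependent kinase). Calmodulin had 1172 and 1367 TPM in the deletion libraries and 721 and 782 TPM in the parent libraries. On the count scale its log2 fold change was 0.30 ± 0.40, and those of the calcineurin subunits were -0.04 ± 0.34 and 0.13 ± 0.37. That of SSL2 was 1.21 ± 0.35, with 2879 and 2185 reads in the deletion libraries and 1462 and 987 in the parent libraries (adjusted p = 0.191, edgeR). Without the T deletion library edgeR called 3 genes of the list, where it called 11.2% of all tested genes.

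The genes of this list annotated as calcium-transporting ATPases or as a related P-type pump were picked with their values known. Of them 0 passed edgeR's test, where 1.24% of all tested genes did. Those annotated as calcium-transporting, YALI0_E09471g, YALI0_D04873g and YALI0_E34551g, all had positive log2 fold changes. Their strains did not overlap in CPM, as was so for 42.3% of the tested genes. Only YALI0_F21967g, annotated as a P-type ATPase without mention of calcium, had a negative one, and its strains overlapped. YALI0_E09471g, the calcium-transporting ATPase 1 of Y. lipolytica, had 3842 and 3393 reads in the deletion libraries and 2251 and 1447 in the parent libraries (log2 fold change 1.17 ± 0.39, adjusted p = 0.262, edgeR). YALI0_D04873g, resembling the vacuolar pump PMC1 of S. cerevisiae, had 7171 and 2510 reads in the deletion libraries and 4207 and 983 in the parent libraries (log2 fold change 1.04 ± 0.56, adjusted p = 0.528, edgeR). YALI0_E34551g, a putative calcium pump, and YALI0_F21967g, resembling the P-type ATPase SPF1, had log2 fold changes of 0.32 ± 0.34 and -0.15 ± 0.37. YALI0_D01463g, also named after its values were seen, has some similarity to CRZ1, the transcription factor that calcineurin activates in S. cerevisiae. It had 1464 and 401 reads in the deletion libraries and 1662 and 437 in the parent libraries. Its log2 fold change was -0.08 ± 0.55 (adjusted p = 0.979, edgeR). The T and G libraries of a strain differed more for this gene than the strains did.

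Only 1 other gene of the annotation was matched as a water or glycerol channel. YALI0_F00462g, similar to human aquaporin 9, a channel for water and small solutes, was more abundant than YALI0_F01210g in every library. It had 388 and 430 TPM in the T and G deletion libraries, against 784 and 437 TPM in the parent libraries. In counts it had 8196 and 4327 reads in the deletion libraries, against 17458 and 8941 in the parent libraries. Its log2 fold change was -0.95 ± 0.42, the same sign as that of YALI0_F01210g, and did not pass (adjusted p = 0.416 with edgeR, where its unadjusted p was 0.0548, and 0.159 with DESeq2).

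Of the other 20 tested genes of polyamine transport and synthesis, 0 passed edgeR's test, where 1.24% of all tested genes did. In that test 4 had an unadjusted p under 0.05, 2 higher and 2 lower in the deletion strain, beside 12.4% of all tested genes. DESeq2 called 1, where it called 6.18% of all genes. Limma on TPM called 0, where it called 3.33%, but it left out those with a mean TPM under 1. The gene with the largest rise of the 20, YALI0_D00495g, was among those left out and is named after its values were seen. It had 23 and 57 reads in the deletion libraries and 6 and 6 in the parent libraries. Its log2 fold change was 3.04 ± 0.94 (adjusted p = 0.222, edgeR). It met the filter of about 0.654 CPM in 2 libraries through the deletion libraries alone. The list also holds amino acid, GABA and urea permeases whose S. cerevisiae relatives can carry polyamines, and 2 genes of it with almost no reads were not tested. Its median log2 fold change was 0.10. The deposited annotation likens 3 further genes to TPO1, YALI0_A15576g as similar and YALI0_E21241g and YALI0_D22000g as weakly similar. YALI0_A15576g had 3264 and 2218 reads in the deletion libraries and 5050 and 3167 in the parent libraries, with a log2 fold change of -0.43 ± 0.37. YALI0_E21241g had 797 and 373 reads in the deletion libraries and 1602 and 753 in the parent libraries, with a log2 fold change of -0.89 ± 0.38. YALI0_D22000g had 60 and 12 reads in the deletion libraries and 27 and 6 in the parent libraries, with a log2 fold change of 1.17 ± 0.86. None of the 3 passed (adjusted p = 0.742, 0.382 and 0.673, edgeR). With limma on log2(TPM + 1) the first had a log2 fold change of -0.03, where the median over all genes was 0.40. Per length YALI0_A15576g had 68.4 and 96.4 TPM in the T and G deletion libraries, against 101 and 68 TPM in the parent libraries. YALI0_F07062g, at 29.2 and 112 TPM in the deletion libraries, exceeded it in the G deletion library and in no other.

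By TPM averaged over the 4 libraries the leading genes of the polyamine list were a spermidine synthase gene (YALI0_E33143g, SPE3), the adenosylmethionine decarboxylase gene SPE2 (YALI0_E20361g) and the general amino acid permease genes YALI0_B16522g and YALI0_F19866g, both annotated as GAP1. YALI0_B16522g was among them through the parent, at 44.7 ± 44.1 TPM in the deletion strain and 162 ± 140 TPM in the parent (SD, n = 2 each). In the deletion strain alone ornithine decarboxylase (YALI0_B11330g), named after its values were seen, came after SPE3 by mean. It had 137 ± 8.12 TPM there, against 57.5 ± 4.61 TPM in the parent (SD, n = 2 each). SPE2 averaged 126 ± 35.1 TPM in the deletion strain and was higher in the G deletion library, at 151 against 131 TPM. On the count scale ornithine decarboxylase had 234 ± 42.4 CPM in the deletion strain and 132 ± 37.8 CPM in the parent (SD, n = 2 each). Its log2 fold change was 0.83 ± 0.39 and did not pass (adjusted p = 0.456, edgeR). SPE3 had 9366 and 3905 reads in the deletion libraries and 6500 and 7310 in the parent libraries, with a log2 fold change of -0.08 ± 0.45. SPE2 had a log2 fold change of 0.24 ± 0.36 and YALI0_F19866g one of -0.43 ± 0.39. The other tested genes annotated as GAP1, named after their values were seen, were YALI0_C17237g, YALI0_C09889g and YALI0_B19800g. Their log2 fold changes were 1.14 ± 0.76, 0.53 ± 0.73 and -0.39 ± 0.42, and none passed. YALI0_B16522g had 3226 and 276 reads in the deletion libraries and 11618 and 2634 in the parent libraries. The log2 fold change, -2.05 ± 0.87, failed edgeR's test (adjusted p = 0.379). It passed with DESeq2 and with the deposited table as a term in edgeR, where 2.4% of all genes passed (adjusted p = 0.0477 and 0.0476, in a range over all alternatives of 2.62e-08 to 0.879). It was -4.00 without the T deletion library, -1.26 without the G deletion library and -1.09 without the T parent library.

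**Figure D2:**
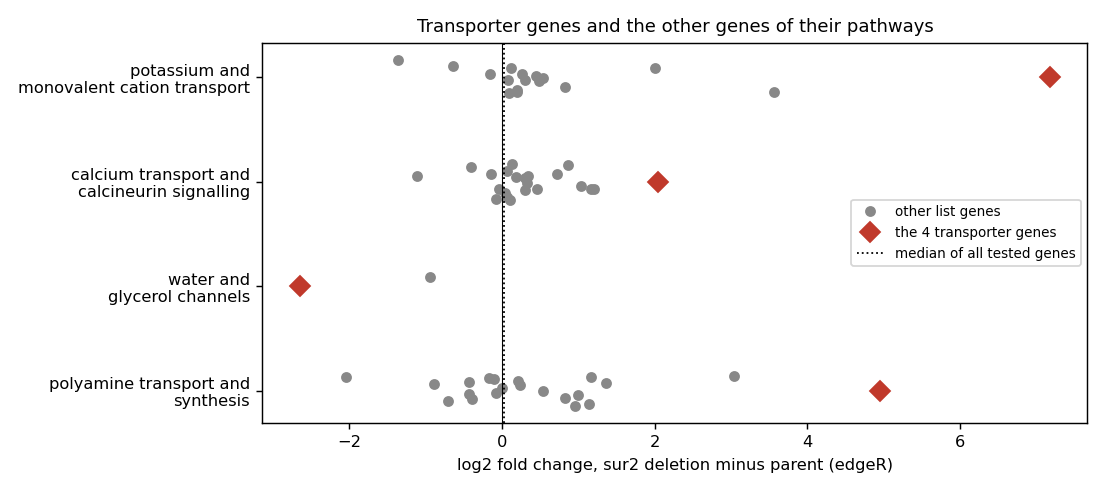
The log2 fold change from edgeR, deletion minus parent, of the 4 transporter genes (red diamonds) and of the other tested genes of the 4 pathway lists (grey points), with the median of all tested genes, 0.03, as a dotted line. The vertical scatter within a list has no meaning. The other genes reach from -1.37 to 3.56 in the potassium list, from -1.12 to 1.21 in the calcium list and from -2.05 to 3.04 in the polyamine list.

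The 4 genes lie apart from each other on chromosomes B, C and F and away from the chromosome ends. YALI0_F01210g is the nearest to an end, 185 kb from the first annotated gene of chromosome F, and the others are at least 1019 kb in. Among the 10 protein-coding genes on each side, 16 were tested around the potassium transporter, 20 around the VCX1-like gene, 17 around the water channel and 20 around the TPO1-like gene, and edgeR called 0 of these 73 in either direction, where it called 1.24% of all tested genes. At an unadjusted p under 0.05 there were 5, against 12.4% of all tested genes. DESeq2 called 2 and limma on TPM 0, where they called 6.18% and 3.33% of all genes. The DESeq2 calls, named after their values were seen, were YALI0_C10626g and YALI0_F01452g, with log2 fold changes of 3.16 and 3.06. The median log2 fold changes of these neighbours were 0.12, 0.54, -0.20 and 0.00 in the same order, beside 0.03 over all tested genes. Of the 20 around the VCX1-like gene 16 had a positive log2 fold change, as did 11 of 16, 6 of 17 and 10 of 20 around the potassium transporter, the water channel and the TPO1-like gene.

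The nearest gene to the left of YALI0_C10311g, YALI0_C10274g, lies 6569 bases away and had 1 and 0 reads in the deletion libraries and 3 and 3 in the parent libraries. On the right of YALI0_C10311g the nearest protein-coding gene, YALI0_C10428g, lies 9394 bases away. Between them are 9 annotated features of other types. YALI0_C10428g had a log2 fold change of 0.39 ± 0.36. To the right of the VCX1-like gene, 636 bases away on the same strand, lies YALI0_B09295g, annotated as IKI1. It had 1386 and 304 reads in the deletion libraries and 258 and 364 in the parent libraries (log2 fold change 1.29 ± 0.56, adjusted p = 0.393, edgeR). Its strains overlapped in reads but not in CPM. On the left YALI0_B09251g, 3352 bases away, had 788 and 3 reads in the deletion libraries and 855 and 3 in the parent libraries, a difference between the tables and not between the strains. The neighbours of the water channel, YALI0_F01188g and the RAD16-like YALI0_F01232g, were at -0.30 ± 0.40 and 0.20 ± 0.38 on the log2 fold change scale. Beside the TPO1-like gene lie YALI0_F07040g, 510 bases away on the opposite strand and weakly similar to the ferric reductase FRE3, and YALI0_F07084g, similar to TOR2. Their log2 fold changes were 0.40 ± 0.71 and 0.34 ± 0.46.

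**Figure D3:**
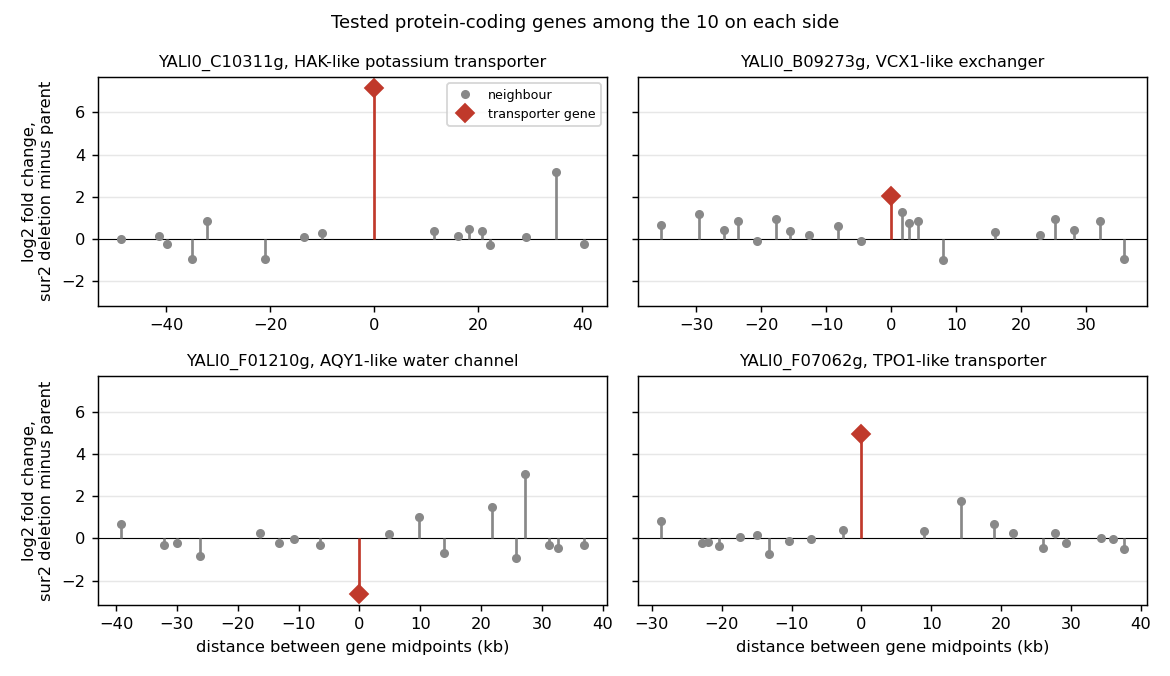
The log2 fold change, deletion minus parent, of each transporter gene (red diamond) and of the tested protein-coding genes among the 10 on each side (grey), placed by the distance between gene midpoints in kb. The largest changes among the neighbours are 3.16 near YALI0_C10311g and 3.06 near YALI0_F01210g, and neither passed edgeR's test.

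For log2 CPM values a prior count of 2 was added to the reads, and the values were centred on each gene's mean. The genes whose profile over the 4 libraries was most like each transporter gene were found by the Euclidean distance between these values. With 4 libraries this mostly follows the size of the strain difference, so it is a description with no test. The VCX1-like gene had very close matches, YALI0_A01485g (an NADPH dehydrogenase of the old yellow enzyme type) at a distance of 0.08, YALI0_B12188g (weakly similar to the ABC transporter STE6) at 0.18 and YALI0_E00990g (no similarity) at 0.19. The water channel had no match nearer than 0.64. Its nearest genes were YALI0_C00825g (related to monocarboxylate transporters), YALI0_F21109g (a predicted transporter related to TNA1), at 0.65, and YALI0_C00847g, at 0.66. The TPO1-like gene was nearest to YALI0_B06160g (0.48), YALI0_E07744g (weakly similar to the vacuolar acid trehalase ATH1, 0.64) and YALI0_F01650g (weakly similar to SPS19, a peroxisomal reductase, 0.77). YALI0_B06160g is annotated as highly similar to another Y. lipolytica gene, so its reads may be shared with that copy.

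The potassium transporter was nearest to YALI0_B00110g (1.04), to the dihydroxyacetone kinase gene YALI0_F01606g (1.13) and to YALI0_F01628g (1.18). YALI0_B00110g had 0 and 0 reads in the parent libraries, so its parent values come from the prior count. Those of the potassium transporter, with 4 and 2 reads, do so in part. The fitted log2 fold changes of this pair were 9.89 and 7.18. YALI0_F01606g, YALI0_F01628g and YALI0_F01650g are consecutive protein-coding genes on chromosome F. Between the 4 transporter genes themselves the smallest distance was 1.73, between the potassium transporter and the TPO1-like gene. Both had their highest value in the G deletion library. The distance of the VCX1-like gene to the TPO1-like gene was 2.93 and to the potassium transporter 4.43, and the water channel was farthest from the potassium transporter, at 9.01.

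**Figure D4:**
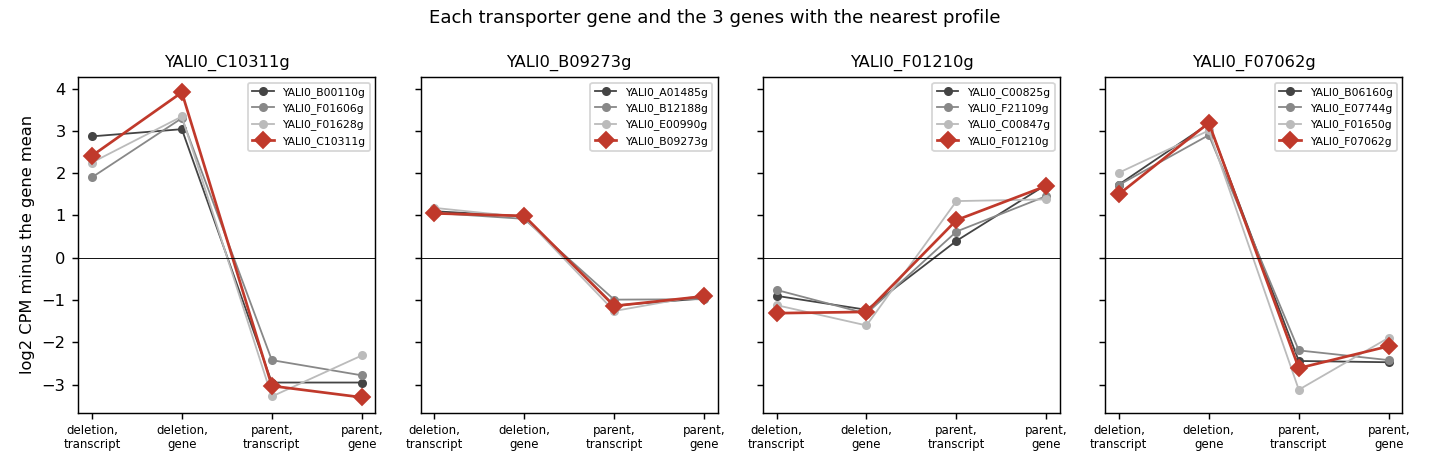
Log2 CPM minus each gene's mean in the 4 libraries, the deletion libraries on the left of each panel and the parent libraries on the right, for each transporter gene (red) and its 3 nearest genes (grey shades); lines only join the points of a gene. YALI0_B09273g and its nearest genes are flat within a strain, while YALI0_C10311g and YALI0_F07062g are higher in the G than in the T deletion library, at 3.91 and 3.19.

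**Figure D5:**
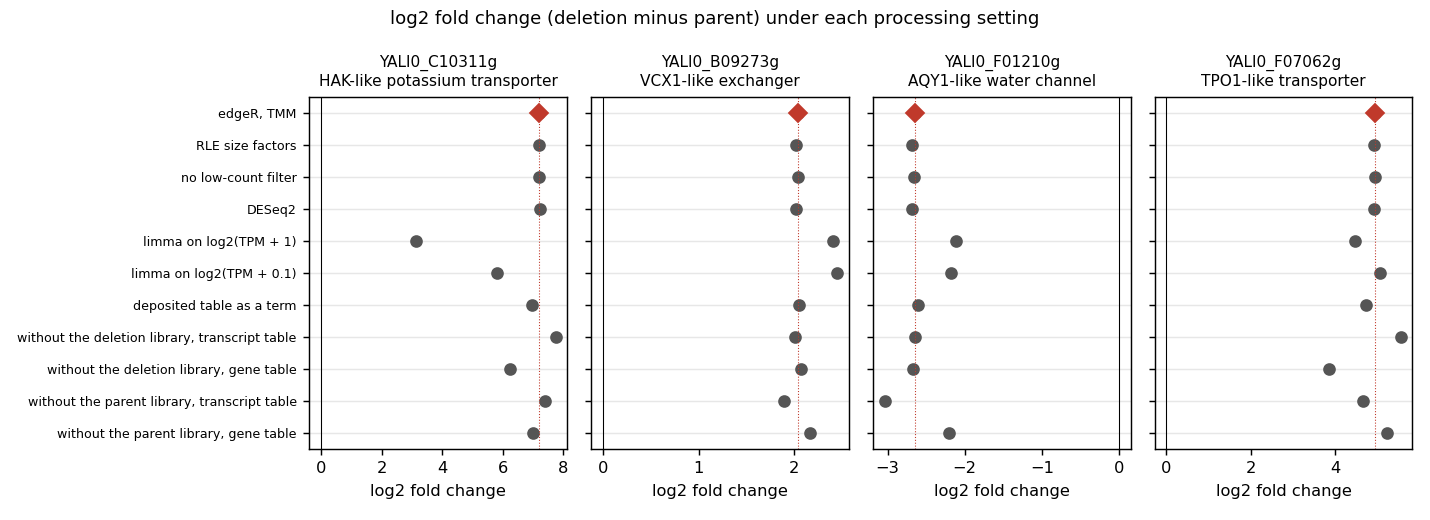
The log2 fold change, deletion minus parent, of each transporter gene with edgeR on all 4 libraries (red diamond) and under the 10 other settings (grey points), with zero as a black line. Every point lies on the same side of zero as the red diamond, and the farthest is YALI0_C10311g on log2(TPM + 1), at 3.13 against 7.18.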

How the data were processed

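Messenger RNA was measured in 4 libraries made with a stranded TruSeq kit, per the labels' protocols. Read counts, raw whole numbers, were deposited per transcript in one table and per gene in the other, per the file headers. The authors also deposited TPM, a measure corrected for gene length (file headers). The sources used here name no aligner, counting tool, strand setting or build, so reads of near-identical, overlapping or antisense genes may be shared. The 4 columns of RPKM were not used.

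Counts were joined by identifier (8381 features, 1 transcript per gene); column names give the strain but no replicate number. Genes were filtered by strain with filterByExpr of edgeR 4.0.16 (R 4.3.3), which left 6051, scaled by TMM and compared by the two-sided quasi-likelihood test on strain alone, with Benjamini-Hochberg adjustment at 0.05. A standard error is the log2 fold change over the root of F. The alternatives used DESeq2 1.42.0 and limma 3.58.1 on log2 TPM with a mean TPM of at least 1. The fits were also run on simulated counts, with the same setting of the spread for all genes and no difference between the tables. The outcome is not given here. Ratios within a table have exact conditional 95% intervals for counting error. A count of 0 allows 3 counts, or 0.1797 to 0.3422 CPM per library by total.

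The genes and the lists were chosen with earlier results of these data known. List genes were matched by symbol or phrase of the annotation, and 5 matches that its text contradicted were removed. Named are the 4 transporter genes, genes naming the same homologue, each list's 4 of highest mean TPM, the 3 nearest profiles and the adjacent protein-coding genes. Others are said to be chosen after their values were seen. Relatives by protein sequence were not analysed here.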

Additional observations from a re-analysis of the deposited data

How the results depend on the processing

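The 4 transporter genes kept the sign of their log2 fold change under each of 10 alternatives, and 36 of 40 values moved by less than 1 SD of the log2 ratios of the 2 tables. The others were 3.13 for YALI0_C10311g with limma on log2(TPM + 1), against 7.18, and 2.41 and 2.45 for YALI0_B09273g with limma at pseudocounts of 1 and 0.1, against 2.04. On TPM the median over all genes was 0.40 and 0.43, and relative to it YALI0_B09273g was at 2.01 and 2.02. The last was 3.87 for YALI0_F07062g without the G deletion library. The SD used as the limit was each gene's own, from 0.21 for YALI0_B09273g to 1.39 for YALI0_C10311g. It was thus widest for the gene whose tables differed most, and 5.81 against 7.18 for YALI0_C10311g counted as within it. With 1 library left out the log2 fold changes ran from 6.25 to 7.74 for YALI0_C10311g, 1.89 to 2.17 for YALI0_B09273g, -3.04 to -2.20 for YALI0_F01210g and 3.87 to 5.56 for YALI0_F07062g. In those fits the lone library of a strain is assumed to vary like the other strain's.

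Calls over all genes numbered 75 with edgeR, 387 with DESeq2, 196 and 212 with limma at pseudocounts of 1 and 0.1, and 145 with the deposited table as a term. They ran from 0 to 685 with 1 library left out, 0 of them without either parent library. The potassium list had 3 calls with DESeq2 and 0 to 3 with 1 library left out, the polyamine list 1 with DESeq2, 1 with the table as a term and 0 to 3, and the calcium list 0 to 3. Genes naming the same homologue had 1 call with DESeq2 and 0 to 1. The cause was not tested. No paired analysis was possible by the replicate numbers of the labels because the columns carry none. The fit with the table as a term sets T beside T and G beside G libraries, which share a table and not a stated culture or day. Few parent reads limit the size of the change of YALI0_C10311g.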

Other observations

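The deposited tables differed for a few genes in both strains alike. Of the 6051 tested genes, 14 were at least 8-fold higher in the transcript table than in the gene table in both the deletion strain and the parent (CPM with 0.5 added), and 0 were so the other way. None of the 4 transporter genes was among them, but YALI0_B09251g, the gene to the left of the VCX1-like gene, was.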
